A study of Drosophila melanogaster with 4 samples.

Results

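Genes whose poly(A) RNA was strongly lower in both pseudouridine pulldowns of the fly ovary are described here. They were chosen by the measured ratio of pulldown to input: a gene was taken when its mean over the 2 input libraries was at least 10 CPM (counts per 1000000 counts of the library) and when (pulldown CPM + 1)/(input CPM + 1) was 0.33 or less in replicate 1 and in replicate 3. Of 17023 genes listed, 6174 reached the input level and 97 met the rule. The ratios and levels of these 97 genes are therefore given as a description, with no test.

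The samples were wild-type Drosophila melanogaster ovaries, with 2 pulldown libraries made with a mouse antibody against pseudouridine and 2 input libraries, numbered 1 and 3 in both groups. The input was set aside from the homogenate before antibody was added, and RNA of both kinds was selected for poly(A). The mock pulldown with rabbit IgG of the methods was not analysed here, and RNA that beads or antibody hold without pseudouridine is not separated in these ratios. The labels do not say whether the 2 replicates came from separate groups of flies, so the spread between them may be technical.

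Pseudouridine is an isomer of uridine made after transcription, either by the H/ACA ribonucleoprotein, in which a small RNA guides the enzyme to its target, or by stand-alone synthases that read the sequence themselves. It is abundant in ribosomal, transfer and spliceosomal RNA and is also found in mRNA. The ovary holds germline cells (nurse cells and the oocyte) that load maternal mRNA, and somatic follicle cells that secrete yolk and eggshell proteins.

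Pulldown 1 held 984979 counts and pulldown 3 held 6338436, against 4245717 in input 1 and 12684875 in input 3. A gene with 3 reads was at 3.05 CPM in pulldown 1 and 0.473 CPM in pulldown 3, against 0.707 CPM in input 1 and 0.237 CPM in input 3. Among all genes at 10 input CPM or more, the median log2 ratio was -0.66 in replicate 1 and -0.12 in replicate 3. Pulldown 1 was therefore the shallowest library and the one with more low ratios. Summed levels of germline marker genes were 4940 and 10500 CPM in pulldowns 1 and 3, against 14000 and 13600 CPM in inputs 1 and 3. The germline marker cup was at 0 in all 4 libraries and adds nothing to these sums. Follicle cell and eggshell genes summed to 333000 and 50300 CPM in the pulldowns, against 119000 and 37300 CPM in the inputs.

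The ratio was 0.33 or less for 1695 of the 6174 genes in replicate 1 (27.5%) and for 265 in replicate 3 (4.29%). Both were low for 97 genes (1.57%). If the 2 ratios were independent, 72.8 genes would be low in both, so the observed number was 1.33 times the expected one, a surplus of 24.2 genes. This depends on the pairing by replicate number, which the labels do not tie to a shared homogenate. With the inputs crossed, 92 genes were low in both where 161 would be expected (0.573 times), and with the mean of the inputs under both pulldowns 108 were, where 101 would be expected (1.06 times). Of the genes low in replicate 3, 36.6% were also low in replicate 1, and of those low in replicate 1, 5.72% were also low in replicate 3. In edgeR's quasi-likelihood test of pulldown against input, 0 of 7085 genes were called lower at an adjusted p below 0.05 with a change of at least 2-fold (0%), 137 were lower at an unadjusted p under 0.05, and DESeq2 called 1 gene lower, Flo2.

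**Figure D1:**
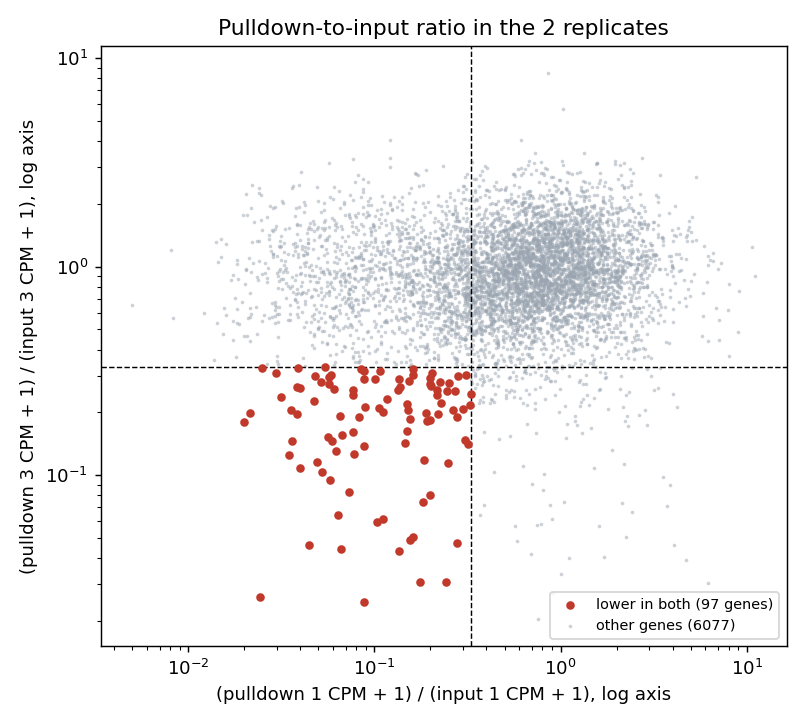
Each point is a gene at 10 input CPM or more; the x axis is (pulldown CPM + 1)/(input CPM + 1) in replicate 1 and the y axis the same in replicate 3, both on log axes, and dashed lines mark 0.33. The 97 genes low in both fill the lower left corner, and the other 6077 genes spread more widely along the x axis than along the y axis.

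The same rule turned round, with a ratio of at least 3.03, was met by 138 genes in replicate 1 (2.24%) and 25 in replicate 3 (0.405%). It was met by 0 genes in both, where 0.559 would be expected. Opposite calls also occurred: 4 genes were low in replicate 1 and high in replicate 3 (6.86 expected), and 12 were high in replicate 1 and low in replicate 3 (5.92 expected).

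The surplus shrank when genes of like input level were compared. The genes were divided into 10 bins of mean input. In the lowest bin, from 10 to 19 CPM, 46.9% were low in replicate 1 and 12% in replicate 3, against 17.2% and 1.29% in the highest bin, from 280 to 21000 CPM. The lowest bin gave 31 genes low in both (34.7 expected), the second 21 (19.4 expected), the fourth 10 (5.3 expected) and the highest 3 (1.37 expected). With the expected number summed over the 10 bins it was 89.4, and the observed number was 1.09 times that. Bins of exon length did not have this effect, with 71.1 expected and a ratio of 1.35 for the 96 of them among the 6019 genes with a known length.

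**Figure D2:**
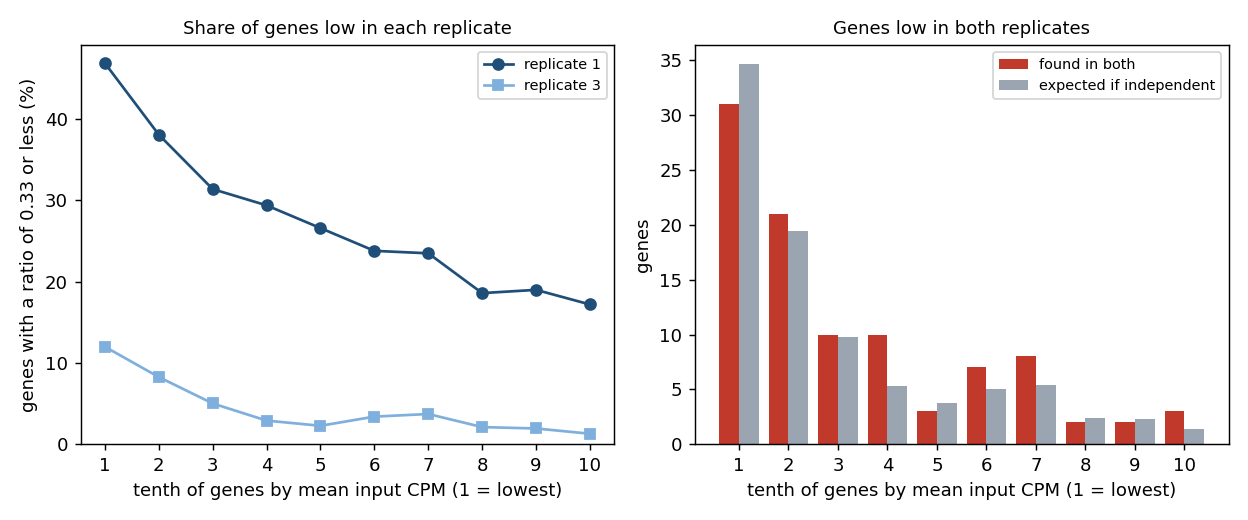
Left, the percentage of genes with a ratio of 0.33 or less in replicate 1 and in replicate 3, by bin of mean input CPM (10 bins of equal size, lowest first); right, the number of genes low in both (red) and the number expected from independent ratios within that bin (grey). The share of low genes was 46.9% in replicate 1 and 12% in replicate 3 in the lowest bin, and observed and expected numbers lay close together in most bins.

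The 97 genes together made up 0.0711% of the counts of pulldown 1 and 0.114% of pulldown 3, against 0.47% of input 1 and 0.542% of input 3. Their median level was 0 CPM in pulldown 1 and 6.15 CPM in pulldown 3, against 21.4 CPM in input 1 and 35.7 CPM in input 3. For the other 6077 genes the medians were 35.5 and 69.3 CPM in the pulldowns, against 53 and 73.7 CPM in the inputs. The median ratio of the 97 genes was 0.107 in replicate 1 and 0.205 in replicate 3, and 69 of them had the lower ratio in replicate 1.

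Zero counts were common among them. In pulldown 1, 55 of the 97 genes (56.7%) had no read, against 614 (10.1%) of the other genes, and in pulldown 3, 17 (17.5%) had none, against 25 (0.411%) of the others. Both pulldowns were at 0 for 12 of the 97 genes, as they were for 1 other gene at this input level. Reads were present in both pulldowns for 37 genes, and at least 10 reads in both for 14. All 97 genes had at least 10 reads in each input. At the level of their input, the 97 genes would have had a median of 21.1 reads in pulldown 1 (range 2.32 to 609), and 22 of the 96 with an annotation (22.9%) would have had fewer than 10, against 8.1% of the other genes. In pulldown 3 the same number was 226 (range 37 to 2610). Exact 95% intervals, which cover counting error only, put the plain CPM ratio under 0.5 for 73 genes in replicate 1 and for 97 in replicate 3. The interval reached past 1 in replicate 1 for 8 genes, to 1.92 at most, while in replicate 3 the highest upper limit was 0.402. In replicate 1 the depth therefore does not show for those 8 genes that the pulldown was lower.

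For 81 genes both pulldowns lay below both inputs in CPM, and for 16 the groups overlapped. Both pulldowns lay below both inputs for 1269 of the 6174 genes (20.6%), and since the rule chose low pulldowns nothing is read from the difference. Both ratios were 0.1 or less for 7 genes. The 2 inputs also differed from each other: 63 of the 97 genes were higher in input 3 and 34 in input 1, and input 3 was at least 3 times input 1 for 29 of 96 genes (30.2%), against 16.3% of the other genes. Since input 3 is the divisor in replicate 3, these values move with the rule itself.

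**Figure D3:**
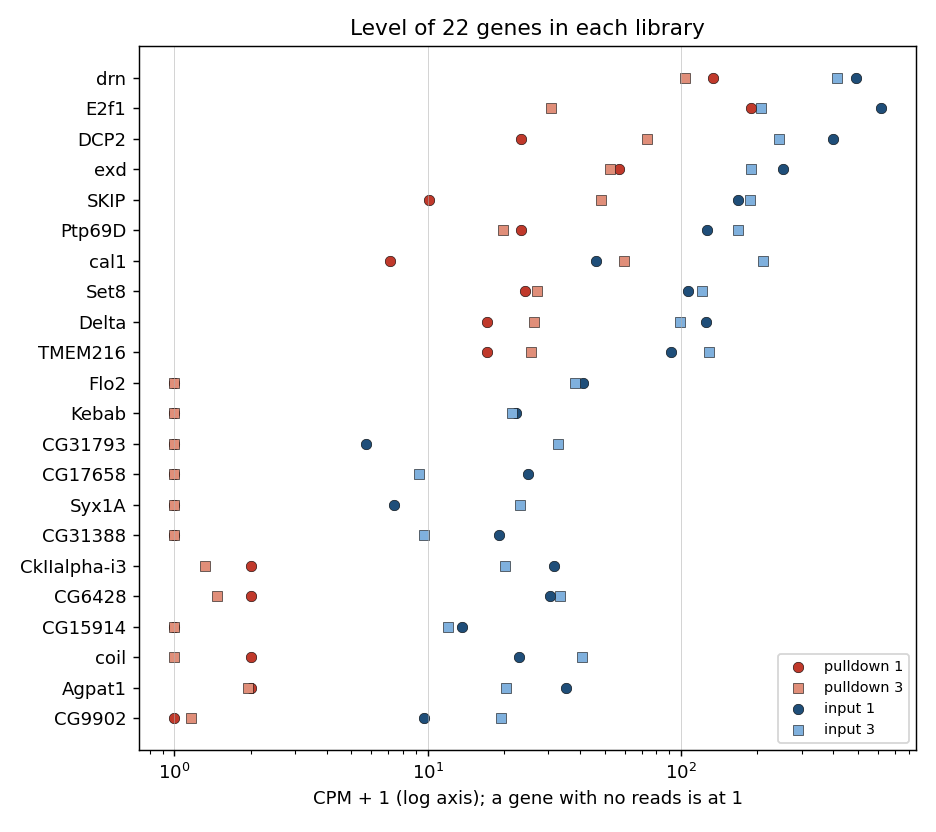
CPM + 1 on a log axis for 22 of the 97 genes in pulldowns 1 and 3 (red and light red) and inputs 1 and 3 (dark and light blue); 1 means no reads, and markers at 1 cover each other where both pulldowns are at 0. The 10 genes with the highest input level come first, from drn at a mean of 451 input CPM, and E2f1 and cal1 are the genes among these 10 where 1 pulldown comes near or above 1 input.

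The sequences below are the first coding bases of 5 of these genes, up to the end of the first coding exon or 120 bases. They are from Ensembl canonical transcripts on the dm6 assembly, written 5′ to 3′ as DNA. Capitals mark T, which is U in the RNA and the only base that can become pseudouridine. They are shown because the genes span most of the range of coding uridine: bnb has the lowest share of the 97 genes and TMEM216 is near the top. Flo2 had no read in either pulldown, and drn and E2f1 had the highest input levels.
bnb: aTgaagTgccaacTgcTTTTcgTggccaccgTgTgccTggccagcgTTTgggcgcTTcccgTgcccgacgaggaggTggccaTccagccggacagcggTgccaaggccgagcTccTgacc
TMEM216: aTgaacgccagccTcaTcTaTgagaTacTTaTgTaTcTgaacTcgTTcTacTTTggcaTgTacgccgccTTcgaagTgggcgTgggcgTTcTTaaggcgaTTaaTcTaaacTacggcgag
Flo2: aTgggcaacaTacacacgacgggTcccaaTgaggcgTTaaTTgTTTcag
drn: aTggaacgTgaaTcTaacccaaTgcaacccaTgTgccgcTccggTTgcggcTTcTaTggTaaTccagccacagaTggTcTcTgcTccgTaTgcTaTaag
E2f1: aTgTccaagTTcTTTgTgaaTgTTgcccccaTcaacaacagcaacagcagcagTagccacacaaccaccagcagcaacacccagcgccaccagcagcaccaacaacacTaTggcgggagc
They lie at chrX:18796174-18796293 (minus strand, bnb), chr3R:8717125-8717244 (plus, TMEM216), chrX:14840971-14841019 (plus, Flo2), chr3R:9354756-9354854 (plus, drn) and chr3R:21626378-21626497 (minus, E2f1). T made up 11.2% of the whole coding sequence of bnb, 28.4% of TMEM216, 18.3% of Flo2, 17.4% of drn and 15.6% of E2f1.

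Uridine content was much alike in the 97 genes and the rest. The median share of U in the coding sequence was 20.1% (range 11.2 to 29.6), against 20.1% in the other genes, and over the whole transcript it was 23.4%, against 22.9% in the others. GC content of the transcript had a median of 47% in the 97 genes, against 49.6% in the others, 48.5% in genes low in replicate 1 alone and 49.4% in genes low in replicate 3 alone. The letters TNTAA or TNTAG, the form of the site that the stand-alone synthase Pus7 is known to read in yeast, were searched on the sense strand of 1 transcript per gene. They occurred at least once in all 96 genes with a transcript and in 99.6% of the others. Their median was 6.84 per kb, against 5.37 per kb. It was 6.03 per kb in genes low in replicate 1 alone and 5.69 per kb in genes low in replicate 3 alone. Runs of at least 5 in-frame CAG codons, the repeat the study is concerned with, were found in 9 of 96 genes (9.38%), against 4.73% of the others. Coding sequences of the 97 genes were also longer (median 2080 bases, against 1450), and the shares were not compared at like length. The study counted matches to a motif of 5 CAGs, which is another measure than an exact run.

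The 97 genes were longer and less abundant than the rest. Their median exon length was 3320 bases (quartiles 1830 and 5220), against 2220 bases in the other genes. The coding sequence had a median of 2080 bases, against 1450, the 3′ UTR 516 bases, against 288, and the number of introns was 5, against 3. Length went with replicate 3: genes low in replicate 3 alone had a median of 3420 bases, and genes low in replicate 1 alone had 2230 bases. The coding sequence and 3′ UTR medians were 1990 and 529 bases in genes low in replicate 3 alone. In genes low in replicate 1 alone they were 1450 and 317 bases. The exon length difference between the 97 genes and the rest was present at both levels of abundance. Under 50 input CPM the 97 genes had 2730 bases, against 1760 in other such genes. At 50 CPM or more they had 5450 bases, against 2590. Counts per gene grow with exon length, so the median input level per kb of exon was 9.74 CPM, against 28.1 CPM in the others. It was 12.2 CPM in genes low in replicate 3 alone and 21.5 CPM in genes low in replicate 1 alone.

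**Figure D4:**
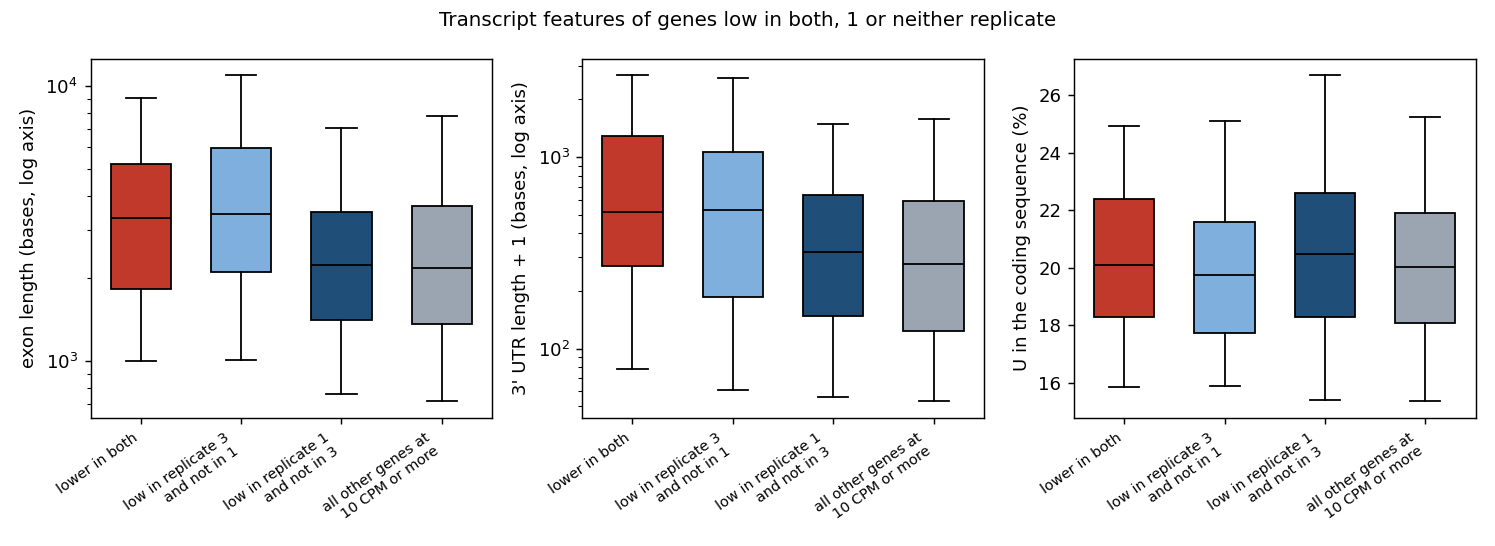
Exon length, 3′ UTR length (both log axes, bases) and percentage of U in the coding sequence for genes low in both replicates, low in replicate 3 alone, low in replicate 1 alone, and in neither. Boxes give the quartiles and the median, whiskers the 5th and 95th percentiles, for genes with an annotation; the median exon lengths are 3320, 3420, 2230 and 2180 bases.

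The median input level was 25.9 CPM (quartiles 18.4 and 51.1, range 10.2 to 451), against 66.1 CPM in the other genes. It was 33.7 CPM in genes low in replicate 3 alone and 48.6 CPM in genes low in replicate 1 alone. Of the 97 genes, no more than 13 of the 96 annotated reached 100 CPM (13.5%), against 34.7% of the others. Of these 96, 0 reached 1000 CPM, against 132 (2.23%) of the others. By chromosome, the 97 genes made up 20.8% on X (others 18.2%), 21.9% on 2L (17.4%), 8.33% on 2R (19.8%), 17.7% on 3L (19.7%) and 29.2% on 3R (24.1%), with 2 genes on chromosome 4. All 96 annotated genes code for proteins. FBgn0029128 has no entry in the annotation used here.

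Exon bases shared with another annotated gene were more frequent among the 97 genes. Any gene entry of the annotation was counted as a partner, and for some genes, such as Fhos, that entry is a transposon insertion. Bases were shared with a gene on the opposite strand in 49 of 96 genes (51%), against 37.5% of the others. They were shared on the same strand in 16 (16.7%), against 6.75%. The 97 genes were also longer, and these shares were not compared at like exon length. Since the strand setting of the counting is not given in the sources used here, counts at shared bases are uncertain. The following division was made after seeing the data. Among the 3455 genes that share no exon bases, 37 were low in both, where 33.2 would be expected. Divided by input level, these were 27 under 50 CPM (27.4 expected) and 10 at 50 CPM or more (10.5 expected). Among the 2564 genes that share exon bases, 59 were low in both, where 39.3 would be expected, with 44 under 50 CPM (34.6 expected) and 15 above (9 expected). Observed over expected was thus 1.11 in genes without shared exon bases and 1.5 in genes with them, and the difference between the 2 was not tested. The part of read assignment in it was not tested.

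Function was read in 2 ways. Of 23 lists of genes by function, 8 held 16 of the 97 genes in all, and 81 genes were in no list. A second grouping by textbook role, made once the genes were known, gave a role to 57 genes and left 40 without one. Every gene with a role was chosen for low pulldowns, so nothing is read from zero counts by role. In the lists, signalling held 4 of 66 genes at 10 input CPM (6.06%; Delta, smo, Su(H) and Pvr), mRNA decay 2 of 28 (7.14%; DCP2 and Rat1) and the actin cytoskeleton 3 of 45 (6.67%; beta-Spec, WASp and Fhos). DNA replication and repair held 2 of 45 (4.44%), okr among them. Membrane traffic held 2 of 77 (2.6%; Flo2 and Syx1A), and the cell cycle, piRNA pathway and microtubule lists held 1 each (E2f1, Nxf3 and Klp31E). These shares stand beside 1.57% of all genes at this level.

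Many lists held none of the 97 genes. Of 79 cytoplasmic ribosomal protein genes, 14 were low in replicate 1 and 0 in replicate 3. The same held for the mitochondrial ribosomal proteins (67 genes, 16 low in replicate 1 and 0 in replicate 3) and the nuclear-encoded respiratory chain (62 genes, 4 and 0). Proteasome, aminoacyl-tRNA synthetase, translation factor, translational control, chromatin, Mediator, splicing, nuclear pore, autophagy, ubiquitin, meiosis and chaperone lists also held 0. These lists had from 12 (meiosis) to 60 (ubiquitin) genes at 10 input CPM. Beside 1.57% of all genes at this level, 0 in any single list of these sizes is near the background, and nothing is read from it. Of the meiosis genes, 41.7% were low in replicate 1 and 0 in replicate 3. In each replicate taken alone, 26 of 66 signalling genes (39.4%) were low in replicate 1 and 10 (15.2%) in replicate 3, beside 27.5% and 4.29% of all genes at this level. Shares above both background values were also found, among other lists, for mRNA decay (39.3% and 7.14%), the piRNA pathway (38.7% and 6.45%), autophagy and TOR (31.6% and 5.26%), the actin cytoskeleton (31.1% and 6.67%) and DNA replication and repair (31.1% and 4.44%). Differences between lists were not tested.

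Transcription and chromatin factors were the most abundant group by role. E2f1, the activating E2F factor that drives entry into S phase, had 188 and 29.7 CPM in pulldowns 1 and 3, against 618 and 207 CPM in inputs 1 and 3. Both pulldowns lay below both inputs, pulldown 1 only just below input 3, with ratios of 0.305 and 0.148. Its group means were 109 ± 112 CPM in the pulldowns and 412 ± 291 CPM in the inputs (SD, n = 2 each), so the spread within each group was wide. exd, a homeodomain partner of Hox proteins, had 55.8 and 51.7 CPM in the pulldowns, against 252 and 189 CPM in the inputs, and the groups were well apart (53.8 ± 2.89 and 220 ± 44.6 CPM; SD, n = 2 each).

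Set8, the methyltransferase for a single methyl group on lysine of histone H4, had 23.4 and 26 CPM in the pulldowns, against 106 and 121 CPM in the inputs, with almost the same ratio in both replicates (0.228 and 0.222). cal1, which loads the centromeric histone, had 6.09 and 58.7 CPM in the pulldowns, against 45.2 and 210 CPM in the inputs, and its pulldown 3 lay above its input 1. The ecdysone-induced nuclear receptor Eip75B had 34.5 and 12.3 CPM in the pulldowns, against 111 and 92.9 CPM in the inputs. Both pulldowns of Eip75B lay below both inputs, as did those of aop, an ETS-domain repressor downstream of Ras (5.08 and 26.8 CPM, against 106 and 93.2 CPM). The 10 genes of this group had a median input of 101 CPM and median ratios of 0.226 and 0.23, with no read in pulldown 1 for 2 of them.

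Among signalling genes, Ptp69D, a receptor tyrosine phosphatase, had 22.3 and 18.8 CPM in the pulldowns, against 126 and 167 CPM in the inputs. Delta, the ligand of Notch, which the germline uses to signal to follicle cells, had 16.2 and 25.2 CPM, against 125 and 98.7 CPM. In both genes the groups were far apart, and for Ptp69D the means were 20.6 ± 2.52 CPM in the pulldowns and 146 ± 29 CPM in the inputs (SD, n = 2 each). Su(H), the DNA-binding factor of the Notch pathway, had 0 and 5.05 CPM in the pulldowns, against 30.6 and 24.5 CPM in the inputs. smo, the transducer of Hedgehog signals, had 0 and 19.1 CPM in the pulldowns, against 8.95 and 68.3 CPM in the inputs. For smo the groups overlapped, since pulldown 3 was above input 1, and 1085 of 4008 exon bases overlap genes on the opposite strand. Pvr, the PDGF and VEGF receptor of the fly, had 0 and 8.2 CPM in the pulldowns, against 5.18 and 27.5 CPM in the inputs, and overlapped in the same way. Across the 13 signalling genes by role, which leave out Su(H), counted with the transcription factors, the median ratio was 0.136 in replicate 1 and 0.206 in replicate 3.

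Both genes of the mRNA decay list were among the better covered. DCP2, the enzyme that removes the mRNA cap, had 22.3 and 72.9 CPM in the pulldowns, against 400 and 243 CPM in the inputs, and its ratio was far lower in replicate 1 (0.0582) than in replicate 3 (0.303). Rat1, a nuclear 5′ to 3′ exonuclease, had 35.5 and 25.4 CPM, against 110 and 107 CPM. All pulldown values of both genes lay below all input values, and DCP2 shares no exon bases with another gene. coil, the coilin of Cajal bodies, had 1 read in pulldown 1 and 0 in pulldown 3, against 93 and 502 reads in the inputs. Nxf3, an export factor for piRNA precursors, had 0 and 5.52 CPM, against 12 and 25.8 CPM, and shares 4496 of its 7512 exon bases with a gene on the same strand.

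In the repair group, 4 of 5 genes had no read in pulldown 1. Tdg, a DNA glycosylase for mismatched thymine, was the exception, with 10.2 and 14.4 CPM in the pulldowns, against 72.8 and 74.2 CPM in the inputs. PolH, a translesion polymerase, had 0 and 10.9 CPM, against 45.7 and 59.1 CPM. Both genes had no overlap between groups, and Tdg has 2612 exon bases in common with genes on the opposite strand. The Rad54 homologue okr, of meiotic recombination, had 0 and 8.05 CPM, against 3.06 and 34.9 CPM. Its pulldown 3 lay above its input 1, and the interval of the plain ratio in replicate 1 ran from 0 to 1.41 on 13 reads in input 1.

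Cytoskeletal genes differed in which replicate was lower. WASp, an activator of branched actin, had 21.3 and 6.15 CPM in the pulldowns, against 88.8 and 61.7 CPM in the inputs, with ratios of 0.249 and 0.114. beta-Spec, a spectrin of the membrane skeleton, had 0 and 41.7 CPM, against 32.7 and 137 CPM, with ratios of 0.0296 and 0.31. The spectrin gene overlapped between groups, since pulldown 3 was above input 1, and WASp did not. Fhos, a formin, had 0 and 12.8 CPM, against 10.4 and 46.7 CPM, and the kinesin Klp31E 1.02 and 8.52 CPM, against 18.1 and 44.6 CPM. TMEM216, named for a protein of the ciliary transition zone, had 16.2 and 24.6 CPM, against 90.2 and 128 CPM, and shares 1517 of its 2812 exon bases on its own strand.

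Of the 5 membrane traffic genes by role, 4 had no read in pulldown 1 and 2 had none in pulldown 3. Flo2, a flotillin of membrane microdomains, had 0 reads in both pulldowns, against 171 and 474 reads in the inputs (40.3 and 37.4 CPM). It was at least 22.1-fold lower, with the pulldowns set at the mean of their floors of 3 reads per library, and upper limits of the plain ratio were 0.094 and 0.0156. Its edgeR adjusted p was 0.9999, and 277 of 5053 exon bases overlap pdgy, which runs the opposite way. Syx1A, the syntaxin of synaptic exocytosis, had 0 reads in both pulldowns, against 27 and 281 reads in the inputs, and its bound was 8.1-fold. Its upper limits were 0.631 and 0.0264, and it shares 447 exon bases with eIF4EHP on its own strand.

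Among the other genes at 0 in both pulldowns, input reads were as follows: Kebab 91 and 262 (at least 12-fold lower against the mean floor), CG31793 20 and 401 (at least 10.3-fold), CG17658 102 and 105 (at least 9.18-fold) and CG31388 77 and 110 (at least 7.62-fold). These bounds rest on both replicates together, and replicate 1 alone allowed less. There the upper limit of the plain ratio was 0.178 for Kebab, 0.873 for CG31793, 0.159 for CG17658 and 0.212 for CG31388, while in replicate 3 the limits were 0.0284, 0.0185, 0.0716 and 0.0683 in that order of genes. For CG11562, also at 0 in both pulldowns on 11 and 255 input reads, the limit in replicate 1 was 1.72, so a lower level was not detectable there. Just above 0 came CkIIalpha-i3, with 1 and 2 reads in the pulldowns, against 130 and 245 in the inputs, CG6428 with 1 and 3 reads, against 125 and 409, and Agpat1, an acyltransferase of phospholipid synthesis, with 1 and 6 reads, against 145 and 247. In these 3 genes each pulldown lay below both inputs.

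drn, the gene with the highest input level, was in no list. It had 133 and 103 CPM in the pulldowns, against 491 and 411 CPM in the inputs, and 118 ± 21.1 CPM and 451 ± 56.2 CPM as means (SD, n = 2 each). Its counts, 131 and 654 reads in the pulldowns, against 2084 and 5218 reads in the inputs, gave exact intervals of the plain ratio of 0.225 to 0.323 and 0.231 to 0.272. The groups did not overlap, and the 2 replicates had nearly the same ratio, but 2924 of 8254 exon bases are also those of a gene on the same strand, so its reads are uncertain. SKIP, an interactor of the Shal potassium channel, had 9.14 and 47.5 CPM, against 167 and 187 CPM, and its replicates differed more (0.0603 and 0.257).

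Among adhesion genes, the integrin alpha chain mew, a laminin receptor, had 1 read in pulldown 1 and 0 in pulldown 3, against 31 and 399 reads in the inputs. Cont, a contactin of septate junctions, had 8.12 and 37.1 CPM, against 84.3 and 120 CPM. Of the 8 transport and metabolism genes, 7 had no read in pulldown 1 and 2 none in pulldown 3. heix, which prenylates quinones, had 0 and 10.6 CPM, against 2.36 and 54.6 CPM. Its pulldown 3 lay above its input 1, and the inputs were far apart. The last role, protein folding and mitochondrial translation, held 2 genes without reads in pulldown 1. Sil1, a nucleotide exchange factor of the endoplasmic reticulum chaperone, had 0 and 4.26 CPM in the pulldowns, against 27.8 and 40.9 CPM in the inputs, and mRRF2, of mitochondrial ribosome recycling, had 0 and 2.21 CPM, against 4 and 16.4 CPM.

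The longest of the 97 genes were Eip75B (13451 exon bases), Tdg (13125) and lilli (10614), an AF4-family elongation factor, and the shortest were CG34183 (533), CG11562 (748) and CG8461 (883). lilli had 8.12 and 21.6 CPM in the pulldowns, against 28.3 and 73.9 CPM in the inputs. CG34183 had 2 and 0 reads in the pulldowns, against 259 and 97 reads in the inputs.

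Near the thresholds the values changed by steps smaller than the counting error. By the higher of the 2 ratios, the genes just inside were WRNexo (0.327), an exonuclease, Ire1 (0.329), the sensor of unfolded protein in the endoplasmic reticulum, and Rat1 (0.329). Just outside were Usp15-31 (0.331), su(Hw) (0.332) and CG12253 (0.333). By level, CG11155 (10.4 CPM), mRRF2 and FBgn0029128 (10.2 CPM each) were the lowest inside, and CG17036 (9.92 CPM), bchs (9.88 CPM) and Dtwd2 (9.76 CPM) met both ratios just under it.

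The tissue of origin could be read from marker lists only. Of 6 marker lists, none held any of the 97 genes. The lists were for germline, follicle cells and eggshell, muscle sheath, hemocytes and fat body, neurons with glia and gut, and testis. The neuron, glia and gut list and the testis list had 0 genes at 10 input CPM, so neither could hold any. Hemocytes and fat body had 3 such genes and the muscle sheath 13. Beside 1.57% of all genes at this level, 0 in lists this small does not tell the tissue of origin. Of 28 germline markers at 10 input CPM, 15 (53.6%) were low in replicate 1 and 1 (3.57%) in replicate 3. Of 27 follicle cell and eggshell markers, 0 were low in replicate 1 and 1 (3.7%) in replicate 3. Over all genes at this level the shares were 27.5% in replicate 1 and 4.29% in replicate 3. Within a library of bulk ovary RNA, fewer cells of a type and less RNA per cell cannot be told apart. Muscle sheath markers summed to 905 and 1120 CPM in the pulldowns, against 1450 and 1500 CPM in the inputs, and hemocyte and fat body markers to 271 and 207 CPM, against 156 and 283 CPM. The neuron, glia and gut list summed to 52.8 and 0 CPM, against 3.77 and 5.12 CPM, and the testis list to 0 and 0 CPM, against 0.707 and 1.18 CPM. In the first of these Amy-p, betaTry, repo and Jon65Aiii were at 0 in all 4 libraries, and in the second betaTub85D, aly, can, dj and ocn were. So were cup in the germline list and Lsp1alpha in the hemocyte and fat body list. By the methods, input and pulldown are taken from the same homogenate. The labels do not say that same-numbered libraries share a homogenate. Whether cell makeup differed between the libraries paired here, and its part in the ratios of the 97 genes, was not tested.

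In the fit across all genes, log2 fold changes of the 97 genes ran from -11.00 to -1.53 with a median of -2.73, where the median of all tested genes was -0.07. These values come from the libraries that chose the genes. Unadjusted p was under 0.05 for 35 of them, where 137 of 7085 tested genes (1.93%) were lower at that p, and the 35 are no support since the same ratios chose the genes. The smallest adjusted p was 0.9999 (edgeR), and the biological coefficient of variation was 0.734.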

How the data were processed

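The deposited values are raw counts of reads per FlyBase gene, 1 file per library, not normalised. Per the submitters' processing notes the authors used HISAT2 2.1.0, featureCounts 1.4.6 and DESeq2 1.24.0, with reads aligned to dm6. The strand setting of the counting is not given in the sources used here. Groups and replicate numbers came from the sample titles.

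CPM were computed from each file's total, and 1 CPM was added before taking ratios. Expected numbers are the product of the 2 shares of low genes. Of 17023 genes, 16647 (97.8%) were matched by identifier to Ensembl annotation of dm6, for exon length, transcripts and exon bases shared with other genes. Bases were read from the RefSeq copy of the genome. Positions are 1-based, and intervals are exact (Clopper-Pearson) at 95%. Some older symbols in the lists were updated by hand. The analysis used Python 3.11.15, R 4.3.3 and edgeR 4.0.16 (TMM, filterByExpr, group as the only term, two-sided, Benjamini-Hochberg), with DESeq2 1.42.0 as an alternative. Only the main edgeR fit and DESeq2 were tried on simulated counts, and the other edgeR settings were not.

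The genes, lists, tests and alternatives were chosen with earlier results of these data known. Named genes were the 10 with the highest input level, 6 at 0 in both pulldowns, the 8 with the lowest higher ratio, those next to each threshold, those in a list, and the 3 longest and 3 shortest. PolH, aop, Cont, mew, heix and bnb were chosen after their values were seen. A gene that the rule names is not reported here. Same-numbered libraries were paired by their titles, since the methods take input and pulldown from 1 homogenate. The labels do not say that a number marks a homogenate. Deviations of same-numbered libraries from the group means correlated at 0.414. Depth, from 984979 to 12684875 counts, limits the ratios of replicate 1 most. The p-values measure only the spread between these libraries.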

Additional observations from a re-analysis of the deposited data

How the results depend on the processing

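With either replicate left out, the number of genes ranged from 265 to 1695, the median exon length from 2260 to 3410 bases and the median input level from 30.7 to 46.4 CPM. The number low in both, 97 with 72.8 expected, became 39 (34.4 expected) with a constant of 5 CPM, 54 (31.4) at a ratio of 0.25 and 389 (300) at 0.5. It was 147 (105) from 5 input CPM, 63 (45.7) from 20 and 25 (19.5) from 50. Other scaling gave 73 (42.8) with upper-quartile totals and 74 (45.1) with DESeq2 size factors. With inputs crossed between pulldowns it was 92 (161), 51 of them shared with the 97. With the mean of both inputs, which the ratios then share, it was 108 (101). Alternatives chosen after seeing the data gave 32 (24.3) for genes with at least 30 reads due in pulldown 1, 37 (33.2) for genes sharing no exon bases, and 98 (61.2) with follicle cell markers left out of the totals. The number low in both was 69 (51) with at least 10 CPM in each input, 84 (54) with TMM-scaled totals and 106 (78.3) with a constant of 0.5 CPM. Median exon length was 5450 bases from 50 CPM. Median input level was 53.4 CPM at a ratio of 0.5 and 102 CPM from 50 CPM. The cause of these moves was not tested beyond the rule's own construction.

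With the replicate number as a block, pairing pulldown and input, edgeR called 0 genes lower and 0 higher, with 228 lower and 65 higher at an unadjusted p under 0.05. DESeq2 called 1 lower and 2 higher, and edgeR with no filter 0 lower and 2 higher.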
